A study of Mus musculus with 8 samples.

Results

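Predicted genes are loci that annotation projects list under placeholder symbols, either Gm followed by digits or a RIKEN clone name ending in Rik, because no named gene had been assigned to them. The mouse brain table examined here lists 43346 genes, of which 18125 carry such a symbol. From these, 91 were kept. In each of the 91, all 4 GFP-GR100 libraries lay above all 4 GFP libraries in CPM (counts scaled to the same library total). The GFP-GR100 mean was at least 0.2 CPM, and the ratio of the GFP-GR100 mean to the GFP mean was at least 2. The genes were chosen by the difference between the groups, so their group values are given below as a description and support nothing.

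Each library came from 1 animal's cortex and hippocampus at 1.5 months of age, with 2 females and 2 males in each of 2 groups. The weight listed for each sample ran from 111.4 to 126.6 mg in GFP and from 71.9 to 85.1 mg in GFP-GR100. The groups thus differed in listed weight, without overlap, as well as in construct. GFP animals expressed green fluorescent protein alone and GFP-GR100 animals expressed the same protein fused to 100 glycine-arginine repeats, a dipeptide repeat protein translated from the C9orf72 repeat expansion in frontotemporal dementia and amyotrophic lateral sclerosis. Both constructs were built in an adeno-associated virus plasmid, and the labels do not give the promoter or the cells that took it up. In each group, libraries 1 and 2 are from females and libraries 3 and 4 from males. Whole-library totals ran from 65880460 to 89113010 counts, so that 3 counts are worth 0.0337 to 0.0455 CPM.

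Many predicted genes are not orphans. Some are copies of known gene families that had no official name when the annotation was made, some are pseudogenes, and others are noncoding transcripts that share exons with a named gene or run antisense to it. Interferons switch on antiviral genes through STAT and IRF transcription factors, and the induced families, such as the Ifit proteins, the immunity-related GTPases, the very large GTPases, the Pyhin DNA sensors and MHC class I, have expanded in the mouse into tandem arrays that hold many such copies. In the brain, microglia, the resident macrophages, express many of these genes.

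The label "unnamed" did not hold for all 91. GENCODE release M21 listed 86 of them, 74 at the same position, and gave 7 a name. These are I830012O16Rik (Ifit3b), 2010002M12Rik (Ifit1bl2), Gm4955 (Ifi206), Gm16340 (Ifi203-ps), 4932418E24Rik (Ccdc187), Gm13139 (Zfp991) and Gm14025 (Vinac1). RefSeq matched 54 and named a further 2, 2010109I03Rik (Ly6m) and 4931423N10Rik (Potegl). By M21 class, 25 were protein coding, 19 antisense, 15 lincRNA and 6 processed pseudogenes. Protein-coding rows made up 27.5% of the 91 against 20.4% of the 3998 predicted rows at 0.2 CPM or more, and processed pseudogenes 6.59% against 16%.

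Promoter sequences were looked at first, because the selection used no sequence. RefSeq promoters on build GRCm38.p6, running from 250 bases before to 50 after a start site, were found for 35 of the 91. The sequence GAAA, then 2 bases of any kind, then GAAA, the core of the interferon-stimulated response element bound by ISGF3 and IRF factors, was present on either strand in a promoter of 9 of the 35 (25.7%), against 3.99% of all 27025 genes in the table. Read on the strand of the gene only, the core was found in 6 of the 35 (17.1%), against 2.06%. Counted by promoter, 9 of 44 (20.5%) held the core on either strand, against 3.44% of all 32851. GAGGAAGT (ACTTCCTC on the other strand), a site of the PU.1 type used by macrophage genes, was present in 5 (14.3%) against 3.69% of all genes, and on the strand of the gene in 4 (11.4%) against 2.12%. The 5 matches are 4 sites, since the promoters of Gm26740 and C920009B18Rik overlap and share 1. The STAT site TTCNNNGAA, which reads the same on both strands, was present in 2 (5.71%) against 9.55%. A match describes these letters and shows no binding. The promoters below carry the core and belong to an Ifit pair, a Pyhin gene, an immunity-related GTPase and a lincRNA. Each runs 5′ to 3′ on the strand of its gene, and capitals mark the core.
I830012O16Rik, chr19:34607724-34607857, plus strand: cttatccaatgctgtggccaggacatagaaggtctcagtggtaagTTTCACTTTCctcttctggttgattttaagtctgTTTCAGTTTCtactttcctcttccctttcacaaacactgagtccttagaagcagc
2010002M12Rik, chr19:34640740-34640858, minus strand: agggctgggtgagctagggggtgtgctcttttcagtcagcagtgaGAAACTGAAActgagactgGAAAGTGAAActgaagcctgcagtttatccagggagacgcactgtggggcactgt
Gm4955, chr1:173491304-173491403, minus strand: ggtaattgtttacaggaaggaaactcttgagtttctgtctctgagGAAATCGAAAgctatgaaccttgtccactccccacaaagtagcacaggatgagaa
Gm12250, chr11:58183707-58183851, plus strand: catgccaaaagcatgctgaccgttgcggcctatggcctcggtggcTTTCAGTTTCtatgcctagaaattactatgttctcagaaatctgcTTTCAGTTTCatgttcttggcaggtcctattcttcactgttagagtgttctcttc
Gm26797, chr9:122310921-122311020, minus strand: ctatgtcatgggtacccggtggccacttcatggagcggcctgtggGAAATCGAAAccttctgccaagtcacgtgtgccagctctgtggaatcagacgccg

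I830012O16Rik, 2010002M12Rik and Gm12250 each hold the core 2 times within these stretches, and in all 5 it lies at offsets from -188 to -40 relative to the start site. Both cores of 2010002M12Rik lie in the gap of 128 bases between it and Ifit1, which begins at chr19:34640871. They cannot be assigned to either gene alone. The start site of Gm12250 is 3896 bases upstream of the start in the deposited table, so its promoter lies outside the counted locus. The other promoters with the core belong to Gm1966, I830077J02Rik, Gm16118 and 1700006J14Rik. That of Gm1966 also lies outside the counted locus, with a start site 40610 bases upstream of the deposited start. The PU.1-type site was found in 2010002M12Rik, B430306N03Rik, C920009B18Rik, Gm26740 and I830077J02Rik. In 2010002M12Rik it belongs to another start site (chr19:34629811), inside the counted locus, and not to the promoter printed above. In Gm26740 it belongs to a start site 3547 bases upstream of the deposited start. The STAT site of 4930512H18Rik belongs to a start site (chr8:61919647) inside its counted locus.

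The selection thinned the predicted rows as follows. Of the 18125, 10943 had a count, 3998 reached 0.2 CPM in GFP-GR100 and 257 of those were also separated between groups. Groups did not overlap, with GFP-GR100 higher, in 391 of the predicted rows with a count (3.57%), and 0.832% passed all steps. Over every row with a count, 5.37% were separated in this direction. Those kept were 2.28% of the predicted rows at 0.2 CPM, and the same numerical steps kept 372 of 16317 other rows, also 2.28%. In the opposite direction, with all GFP-GR100 libraries below all GFP libraries, a GFP mean of at least 0.2 CPM and a ratio of 0.5 or less, there were 6 of 3780 predicted rows (0.159%) and 38 of 16007 other rows (0.237%). The 6 predicted rows were 1500015O10Rik, 1700101E01Rik, 1700001C02Rik, 1700026D08Rik, Gm11492 and Gm16090.

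**Figure D1:**
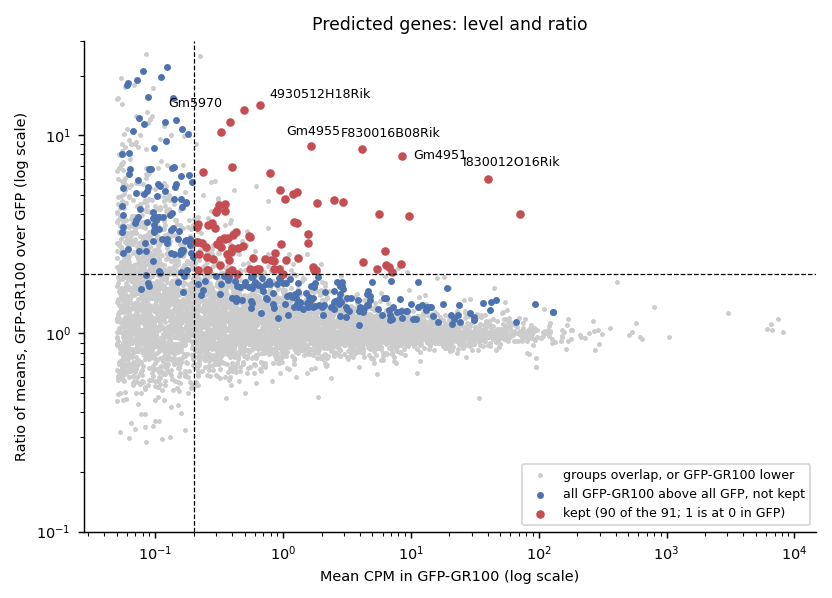
Ratio of group means (GFP-GR100 over GFP, log axis) against the GFP-GR100 mean in CPM (log axis) for predicted genes of at least 0.05 CPM with a GFP count. Dashed lines mark 0.2 CPM and a ratio of 2, red points are the genes kept, and most of these lie below 1 CPM, with 11 at 5 CPM or more.

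Most of the 91 were scarce. The median GFP-GR100 mean was 0.547 CPM, 44 were under 0.5 CPM, 30 reached 1 CPM and 11 reached 5 CPM. The median ratio was 2.86, and 50 had a ratio under 3. Per length, in the deposited RPKM, the highest levels in GFP-GR100 were those of Gm27505 (64.4 RPKM), Gm28006 (55) and Gm27533 (54.9), and that of I830012O16Rik was 20, against a median of 0.377 RPKM. The 91 lay on 19 chromosomes, and 25 of them formed 11 groups with gaps under 100000 bases.

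The thresholds divided like from like. Just inside the ratio limit were Gm25767 (2.0), Gm12743 (2.0) and Gm27505 (2.05), and just outside were Gm13710 (1.96), 4930544I03Rik (1.95) and Gm9750 (1.95). Just inside the level limit were Gm15650 (0.207 CPM), Gm13389 (0.211) and Gm11375 (0.214), and just outside were Gm23711 (0.196), 1700123I01Rik (0.193) and Gm25361 (0.191).

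In the fit across all genes (edgeR quasi-likelihood test, sex as a covariate, Benjamini-Hochberg adjusted p under 0.05), 2.19% of 20987 genes were called higher and 0.324% lower. Of the 91, 84 had enough counts to be tested and 31 were called higher. Of all predicted rows tested, 0.921% were called higher. Because the same contrast chose the genes, nothing is read from the 31.

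The Ifit genes encode interferon-induced proteins with tetratricopeptide repeats that bind viral RNA. Of 3 predicted Ifit genes listed, 2 were kept. I830012O16Rik (chr19:34607970-34613401), the Ifit3b copy of Ifit3, measured 6.25, 6.46, 9.42 and 4.47 CPM in GFP 1 to 4 and 32.9, 41.2, 44.5 and 41.5 CPM in GFP-GR100 1 to 4. The lowest GFP-GR100 library was above the highest GFP library, and the means differed 6.01-fold. Its named neighbour Ifit3, 19239 bases away, rose from 11.4 ± 3.68 to 74.8 ± 11.2 CPM (SD, n = 4; log2 fold change 2.65, SE 0.24, edgeR adjusted p = 0.00106). The count of I830012O16Rik was 0.528, 0.649, 0.581 and 0.596 of that of Ifit3 in GFP 1 to 4 and 0.561, 0.524, 0.527 and 0.533 of it in GFP-GR100 1 to 4. Both groups thus gave nearly the same proportion. The 2 genes are close copies, and how reads that fit both were assigned is not given in the sources used here, so their separate levels are uncertain.

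2010002M12Rik (chr19:34617049-34640743), named Ifit1bl2, measured 0.713, 0.927, 0.909 and 0.916 CPM in GFP 1 to 4 and 1.38, 1.71, 1.89 and 2.25 CPM in GFP-GR100 1 to 4. Its ratio of 2.08 was far from that of Ifit1, which starts 128 bases away and rose from 4.93 ± 2.01 to 55.1 ± 9.79 CPM (SD, n = 4; log2 fold change 3.42, SE 0.36, edgeR adjusted p = 0.00600). As a share of the Ifit1 count, 2010002M12Rik was 0.124 to 0.379 in GFP libraries and 0.0272 to 0.0507 in GFP-GR100 libraries, with no overlap. The third predicted Ifit gene, Gm14446 (Ifit1bl1), was not kept and stood at 3.10 ± 0.174 CPM in GFP and 3.12 ± 0.335 CPM in GFP-GR100 (SD, n = 4). Within this array the copies therefore ran from a ratio of 1.01 for Gm14446 to 6.01 for I830012O16Rik.

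The immunity-related GTPases are interferon-induced enzymes that attack the vacuoles of intracellular parasites. Of 6 predicted genes listed, 4 were kept (Gm4951, Gm4841, Gm12250 and Gm5431). Gm12185 was not, with libraries that overlapped between the groups (0.572 ± 0.423 against 1.12 ± 0.320 CPM, SD, n = 4), nor was Gm12187, at 0.0107 and 0.0187 CPM. Gm4951 measured 1.62, 0.583, 1.94 and 0.173 CPM in GFP 1 to 4 and 6.82, 9.88, 9.30 and 8.11 CPM in GFP-GR100 1 to 4. The GFP libraries varied over more than the GFP-GR100 libraries did in proportion, with GFP 4 the lowest. Gm4841 measured 0.379, 0.0662, 0.438 and 0.124 CPM in GFP 1 to 4 and 1.27, 1.6, 1.46 and 0.848 CPM in GFP-GR100 1 to 4.

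Gm4951 and Gm4841 lie on chromosome 18 between 60212080 and 60303016, the locus with the most members, together with the processed pseudogene Gm5970 and F830016B08Rik. F830016B08Rik measured 1.20, 0.278, 0.426 and 0.0495 CPM in GFP 1 to 4 and 3.55, 3.84, 3.62 and 5.59 CPM in GFP-GR100 1 to 4. Gm5970, which lies inside the span of Gm4951, measured 0.121, 0.0265, 0 and 0 CPM in GFP 1 to 4 and 0.361, 0.569, 0.543 and 0.506 CPM in GFP-GR100 1 to 4. GFP 4 was the lowest library, or shared that place, in each of them but Gm4841. The nearest named gene of all 4 is Iigp1, another immunity-related GTPase, 73013 to 153971 bases away. Iigp1 stood at 4.85 ± 3.38 CPM in GFP and 21.9 ± 3.62 CPM in GFP-GR100 (SD, n = 4) and was not called (log2 fold change 2.1, edgeR adjusted p = 0.199), its GFP libraries running from 1.92 to 8.23 CPM.

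Gm12250, which encodes the GTPase known as Irgb10 although M21 classes the locus as a processed pseudogene, measured 0.622, 0.225, 0.786 and 0.347 CPM in GFP 1 to 4 and 1.36, 1.34, 1.77 and 1.79 CPM in GFP-GR100 1 to 4. Its nearest named gene, the mitochondrial ribosomal protein gene Mrpl22, stood at 11.2 ± 2.35 and 9.82 ± 1.35 CPM (SD, n = 4) and was not called. Gm5431 (chr11:48887422-48902152) measured 0.106, 0.225, 0.202 and 0.186 CPM in GFP 1 to 4 and 0.766, 1.05, 0.944 and 1.04 CPM in GFP-GR100 1 to 4, a ratio of 5.28. Its neighbour Irgm1, a regulator of the other immunity-related GTPases, rose from 13.9 ± 4.92 to 44.3 ± 4.46 CPM (SD, n = 4; log2 fold change 1.62, SE 0.23, edgeR adjusted p = 0.00817).

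Pyhin proteins sense DNA in the nucleus and cytosol, and both predicted Pyhin genes listed were kept. Gm4955 (Ifi206, chr1:173468509-173491041) measured 0.243, 0.172, 0.213 and 0.124 CPM in GFP 1 to 4 and 1.61, 2.04, 1.33 and 1.68 CPM in GFP-GR100 1 to 4, a ratio of 8.86. The DNA sensor Aim2, 2469 bases away and of the same family, stood at 2.55 and 4.55 CPM and was not called (log2 fold change 0.75, edgeR adjusted p = 0.0791). Gm16340 (Ifi203-ps, chr1:173775837-173802720), a pseudogene, measured 0.152, 0.0927, 0.135 and 0.136 CPM in GFP 1 to 4 and 0.248, 0.331, 0.466 and 0.580 CPM in GFP-GR100 1 to 4. Ifi204, 8894 bases from it, rose from 0.868 ± 0.433 to 6.85 ± 0.917 CPM (SD, n = 4; log2 fold change 2.91, SE 0.30, edgeR adjusted p = 0.000663).

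Of 7 very large interferon-inducible GTPase genes listed, 6 were in the table and 3 were kept. Gm8995 (chr7:106504392-106511671) measured 4.01, 3.10, 2.67 and 1.62 CPM in GFP 1 to 4 and 5.68, 6.05, 6.53 and 7.07 CPM in GFP-GR100 1 to 4, a ratio of 2.22. Gm1966 averaged 0.334 and 1.22 CPM, a ratio of 3.67. Gm4070 averaged 0.105 and 0.256 CPM, with GFP-GR100 libraries that differed by no more than 1.19-fold. All 3 belong to a family of close copies, so shared reads make their separate levels uncertain. Of the 3 not kept, Gm8979, Gm8989 and Gm4759, none exceeded 0.0877 CPM in the mean of either group.

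MHC class I molecules present peptides to T cells. Of 6 predicted MHC class I genes listed, only Gm19684 was kept, at 0.0911, 0.0397, 0.135 and 0.0248 CPM in GFP 1 to 4 and 0.203, 0.225, 0.453 and 0.312 CPM in GFP-GR100 1 to 4. H2-T10, 213 bases away, rose from 1.71 ± 0.487 to 4.03 ± 0.369 CPM (SD, n = 4; log2 fold change 1.19, SE 0.16, edgeR adjusted p = 0.00140). Of the 5 not kept, Gm10499 and Gm11127, at 0.947 and 0.470 CPM in GFP, had ratios of 0.927 and 1.15, and Gm7030, at 0.217 CPM, had a ratio of 1.65 with groups that overlapped. Gm6034 was separated between the groups at 0.0516 and 0.132 CPM, a ratio of 2.55, and missed the level limit, while Gm8909 stood at 0.00660 and 0.0162 CPM, under the value of 3 counts. No gene of the 3 listed as Sp100-like or of the 3 of the stefin A family was kept. Only 1 of these Sp100-like genes and 0 of the stefin A genes had enough counts to be tested.

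**Figure D2:**
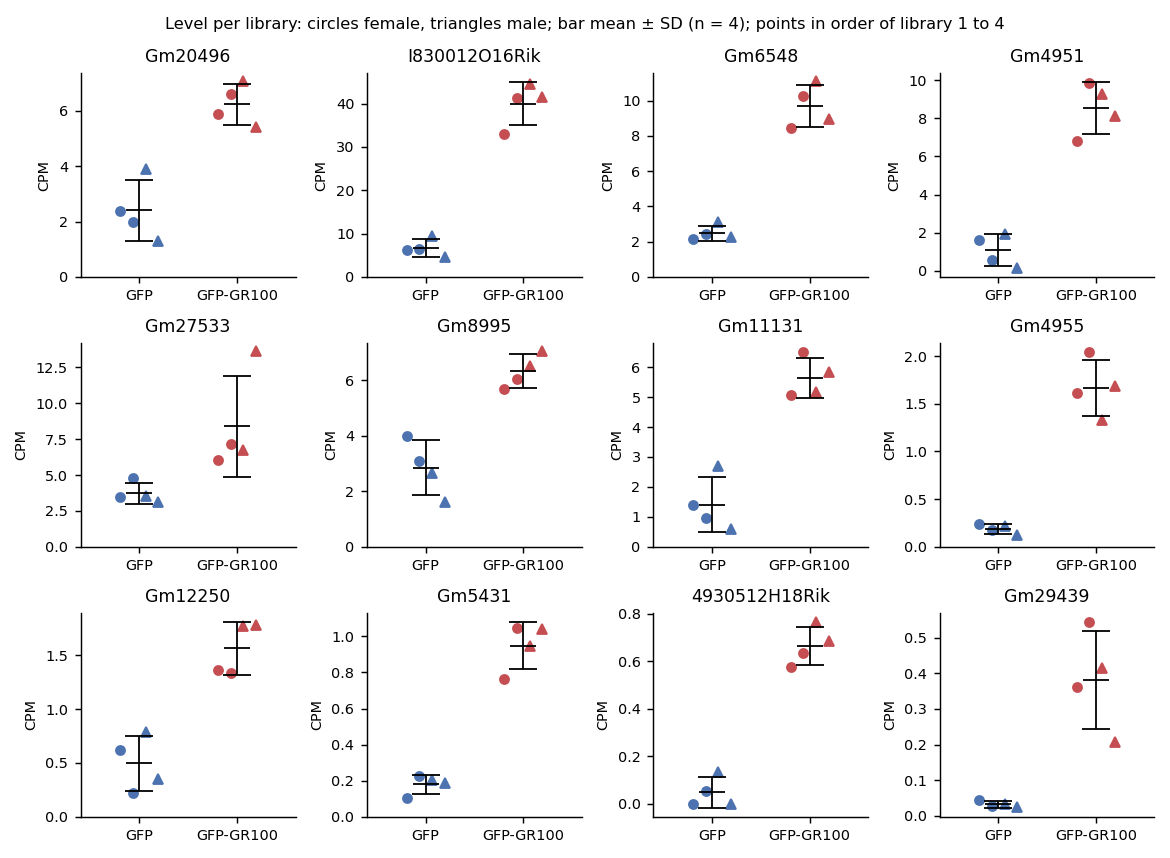
CPM in each library (y axis) of 12 of the 91 genes in GFP (blue) and GFP-GR100 (red), females as circles and males as triangles, and bars for the mean ± SD of 4 libraries. The groups do not overlap because the genes were chosen so, and GFP-GR100 4 stands alone at 13.7 CPM for Gm27533 while the libraries of Gm4955 and Gm6548 lie close together.

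Gm18301, an unprocessed pseudogene, had 0 counts in all 4 GFP libraries, which allows up to 0.0337 to 0.0455 CPM each. It measured 0.0676, 0.0794, 0.220 and 0.536 CPM in GFP-GR100 1 to 4. GFP-GR100 4 was the highest library, and no ratio to GFP can be given.

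Further members overlapped or adjoined genes of the interferon response. Gm6548 (chr17:78850792-78851956) lies 608 bases from Eif2ak2, the kinase PKR that halts translation on sensing double-stranded RNA. It measured 2.13, 2.42, 3.09 and 2.28 CPM in GFP 1 to 4 and 8.47, 10.3, 11.1 and 8.95 CPM in GFP-GR100 1 to 4. Eif2ak2 rose from 5.92 ± 1.52 to 24.9 ± 2.04 CPM (SD, n = 4; log2 fold change 2.02, SE 0.17, edgeR adjusted p = 7.96e-05). On the other side of the same gene, the lincRNA Gm26637 overlaps Eif2ak2 and Sult6b1 and averaged 0.353 and 1.28 CPM. Both members and the kinase thus had ratios between 3.61 and 4.20.

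Gm20496 (chr17:34199316-34205449, minus strand) is antisense to Psmb8 and Tap2, with 100% of its exon bases opposite exons of these genes. Psmb8 encodes a subunit of the immunoproteasome and Tap2 a subunit of the peptide transporter that loads MHC class I. Gm20496 measured 2.38, 2.0, 3.92 and 1.31 CPM in GFP 1 to 4 and 5.87, 6.61, 7.07 and 5.41 CPM in GFP-GR100 1 to 4. Psmb8 stood at 4.08 and 12.9 CPM and was not called (log2 fold change 1.63, edgeR adjusted p = 0.0905), and Tap2 rose from 8.21 ± 2.34 to 16.2 ± 2.49 CPM (SD, n = 4; log2 fold change 0.91, SE 0.18, edgeR adjusted p = 0.0205). Gm15821, which has 44.0% of its exon bases opposite exons of Tap2, averaged 2.58 and 5.47 CPM. Libraries were made with a stranded kit, but the use of strand in counting is not given in the sources used here, so reads of an antisense member and of its partner cannot be told apart.

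Other members lay at Ifi35, H2-Q4 and the Trim array. Gm11626 (chr11:101456576-101457390), with 87.1% of its exon bases opposite exons of the interferon-induced gene Ifi35, measured 0.501, 0.662, 1.07 and 0.347 CPM in GFP 1 to 4 and 2.84, 3.16, 3.00 and 2.83 CPM in GFP-GR100 1 to 4. Its GFP-GR100 libraries differed by 1.12-fold, the narrowest spread of the 91. Ifi35 rose from 2.94 ± 1.14 to 10.6 ± 0.652 CPM (SD, n = 4; log2 fold change 1.81, SE 0.20, edgeR adjusted p = 0.000475). Gm11131, antisense to the MHC class I gene H2-Q4, measured 1.40, 0.953, 2.69 and 0.582 CPM in GFP 1 to 4 and 5.08, 6.50, 5.16 and 5.83 CPM in GFP-GR100 1 to 4. H2-Q4 stood at 6.66 and 23.2 CPM and was not called (edgeR adjusted p = 0.131). In both Gm11131 and H2-Q4 the highest GFP library was GFP 3.

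Gm15135 lies inside Trim34a, one of a tandem array of antiviral tripartite motif ubiquitin ligases, and measured 0.304, 0.503, 0.920 and 0.396 CPM in GFP 1 to 4 and 1.77, 2.17, 3.17 and 2.89 CPM in GFP-GR100 1 to 4. Trim34a rose from 1.94 ± 0.417 to 7.33 ± 1.36 CPM (SD, n = 4; log2 fold change 1.84, SE 0.17, edgeR adjusted p = 7.96e-05). Gm27995, a small RNA model wholly inside exons of the overlapping Trim12c and Trim34a models, averaged 0.174 and 0.542 CPM, and Trim12c rose from 2.45 to 7.23 CPM (log2 fold change 1.51, edgeR adjusted p = 0.00280). Gm20661 overlaps 3 named genes and shares 37.2% of its exon bases with them on the same strand. Of the 3, Uba7, the activating enzyme for the ubiquitin-like protein ISG15, rose from 3.25 ± 1.25 to 13 ± 1.31 CPM (SD, n = 4; log2 fold change 1.93, SE 0.24, edgeR adjusted p = 0.00239), while Fam212a and Cdhr4 were not called. Gm20661 itself averaged 0.837 and 1.74 CPM. A630001G21Rik averaged 0.553 and 1.57 CPM and lies 7085 bases from Sp100, a nuclear body gene induced by interferon, which rose from 3.60 ± 1.01 to 9.61 ± 1.22 CPM (SD, n = 4; log2 fold change 1.35, SE 0.21, edgeR adjusted p = 0.00595).

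For 4930512H18Rik and 9330175E14Rik the nearest named gene was not called and a called gene lay near. 4930512H18Rik (chr8:61849006-61922834), antisense within introns of Palld, had the highest finite ratio of the 91, 14.2, at 0, 0.0530, 0.135 and 0 CPM in GFP 1 to 4 and 0.575, 0.635, 0.763 and 0.684 CPM in GFP-GR100 1 to 4. The GFP values rest on 0 to 12 counts per library. Palld, an actin-binding protein gene, stood at 2.11 and 2.73 CPM and was not called (log2 fold change 0.31, edgeR adjusted p = 0.365). Ddx60, an antiviral helicase gene 5253 bases away, rose from 1.01 ± 0.378 to 14.2 ± 3.39 CPM (SD, n = 4; log2 fold change 3.74, SE 0.31, edgeR adjusted p = 0.000475). 9330175E14Rik averaged 0.234 and 1.19 CPM beside Herpud1, which was not called, and lies 37658 bases from Nlrc5, the activator of MHC class I genes, which rose from 1.48 ± 0.740 to 8.09 ± 1.88 CPM (SD, n = 4; log2 fold change 2.37, SE 0.38, edgeR adjusted p = 0.0175).

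As a reference for these loci, 55 interferon-stimulated named genes were read from the same fit. Of the 55, 41 were called higher and 0 lower, with a median log2 fold change of 1.93, against -0.02 over all genes tested. Over all named genes tested, 2.68% were called higher. Among the largest rises were Oasl2 (6.84 to 126 CPM), Mx1 (0.559 to 8.71 CPM), Usp18 (1.97 to 26.5 CPM) and Ifi44 (1.35 to 15.8 CPM). This list was chosen with earlier results known, so its count describes these samples only.

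Other members, most of them chosen after their values were seen, lay near named genes known from leukocytes, although only 1 of the 83 nearest named genes, Cd84, is in the microglial list. Gm29439 (chr7:30872733-30873333), with 94.1% of its exon bases opposite exons of Cd22, measured 0.0455, 0.0265, 0.0337 and 0.0248 CPM in GFP 1 to 4 and 0.361, 0.543, 0.414 and 0.208 CPM in GFP-GR100 1 to 4. GFP libraries held 2 or 3 counts each. Cd22, a sialic acid receptor known from B cells and microglia, rose from 0.380 ± 0.0946 to 2.57 ± 0.181 CPM (SD, n = 4; log2 fold change 2.68, SE 0.21, edgeR adjusted p = 2.48e-05). B430306N03Rik (chr17:48316141-48327024) measured 0.197, 0.265, 0.168 and 0.235 CPM in GFP 1 to 4 and 0.947, 1.19, 0.841 and 1.15 CPM in GFP-GR100 1 to 4. It lies in the Trem cluster of myeloid receptors, 3607 bases from Treml2, which rose from 0.419 ± 0.207 to 2.1 ± 0.537 CPM (SD, n = 4; log2 fold change 2.29, SE 0.32, edgeR adjusted p = 0.00173), and 19377 bases from Trem2, which rose from 14.2 ± 3.01 to 39.5 ± 3.41 CPM (SD, n = 4; log2 fold change 1.42, SE 0.11, edgeR adjusted p = 2.48e-05).

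Gm10521 averaged 0.121 and 0.327 CPM beside Cd84, a leukocyte surface receptor, which rose from 3.29 ± 0.675 to 10.2 ± 1.10 CPM (SD, n = 4; edgeR adjusted p = 0.000188). Gm20531, antisense at Ptpn6, the phosphatase SHP-1 of blood cells and microglia, averaged 0.451 and 1.06 CPM. Ptpn6 rose from 4.06 ± 1.29 to 10.2 ± 1.02 CPM (SD, n = 4; edgeR adjusted p = 0.00249). Gm17147, a processed pseudogene inside an intron of Hpgds, the prostaglandin D synthase of microglia, averaged 0.338 and 0.862 CPM, and Hpgds rose from 5.99 ± 0.543 to 12.5 ± 2.32 CPM (SD, n = 4; edgeR adjusted p = 0.00224). I830077J02Rik averaged 0.542 and 1.30 CPM at Adora3, an adenosine receptor gene listed in 2 rows, of which the nearer was not tested and the farther, at 16963 bases, rose from 1.04 to 2.29 CPM (edgeR adjusted p = 0.0144). Gm19980 and Gm12462, with GFP-GR100 means of 0.785 and 0.401 CPM, lie at Pax5, the B cell transcription factor, which stood at 0.0326 and 0.111 CPM and was not tested.

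Summed markers of microglia were also higher in GFP-GR100. The members were chosen by this same contrast, so the shared direction is a description. The 6 microglia markers added up to 290 to 383 CPM in GFP libraries and 494 to 537 CPM in GFP-GR100 libraries, 4 of the 6 were called higher and none was at 0. The 7 monocyte and neutrophil markers summed to 8.74 to 14.6 and 18.2 to 27.1 CPM with 2 called higher, the 5 border macrophage markers to 7.23 to 9.24 and 9.44 to 11.8 CPM with 0 called, and the 3 B cell markers to 0.213 to 0.752 and 0.463 to 1.38 CPM with 0 called. The part of cell numbers in these results was not tested, and in bulk tissue more cells of a type and more RNA per cell cannot be told apart. Of 31 rows listed as microglial, 25 were called higher and 0 lower, with a median log2 fold change of 0.93. Over all named genes tested, 2.68% were called higher and the median was -0.04. The microglial list too was chosen with earlier results known, so its count describes these samples only. Among the largest rises were Cst7 (0.362 to 5.80 CPM) and Itgax (0.605 to 6.33 CPM), markers of activated microglia. The tissue label held, with the neuron markers at 6287 to 8608 CPM and the hippocampal and cortical markers at 206 to 330 CPM in every library. Choroid plexus markers, from tissue next to the hippocampus, summed to 126 to 361 CPM in GFP and 32.5 to 88.5 CPM in GFP-GR100, with 1 of 5 called lower. Ependyma markers summed to 10.1 to 20.3 and 8.74 to 10.4 CPM with 2 of 4 called lower, and astrocyte markers to 3157 to 3797 and 3764 to 4787 CPM with 1 of 6 called higher.

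Named neighbours were read across all 91. The nearest named gene overlapped the member in 43 cases, and the neighbours numbered 83 different genes. In the fit across all genes, 2.68% of named genes tested were called higher. Of the 83 neighbours, 72 were tested, 19 were called higher (26.4%) and 0 lower, with a median log2 fold change of 0.20 against -0.04 over all named genes. Of the neighbours that overlapped a member, 10 of 38 tested were called higher, and of those that did not, 9 of 34. Counted by member, 20 had a nearest named gene that rose, 58 had one that was not called and 13 had one that was not tested. For the 3907 predicted rows at 0.2 CPM that were not kept, the nearest named gene was called higher in 54 of 3622 cases with a tested neighbour (1.49%), against 20 of 78 for the 91 (25.6%). A called named gene lay within 100000 bases of 31 of the 91 (34.1%) and of 286 of the 3907 others (7.32%). Members and neighbours come from the same contrast, and where they share exons they may share reads, so these shares are descriptions. Of the 83 neighbours, 12 belong to the interferon list and 1 to the microglial list.

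**Figure D3:**
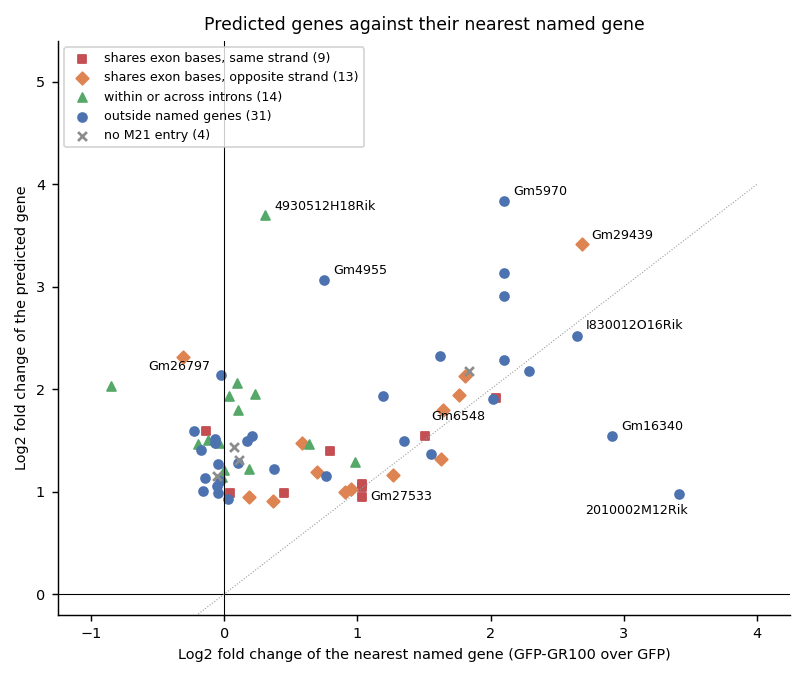
Log2 fold change (GFP-GR100 over GFP) of each predicted gene (y axis) against that of its nearest named gene (x axis) for the 71 pairs in which both were tested, with symbols by the position of the predicted gene and a dotted line of equality. All predicted genes lie above 0 by choice, and their neighbours form a broad column near 0 and a scatter of raised genes up to 3.42.

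Positions relative to named exons also varied. By the M21 models, 43 members lay outside named genes, 19 within or across introns only, 15 shared exon bases with a named gene on the opposite strand, 9 on the same strand, and 5 had no M21 entry. The nearest named gene rose for 9 of the 43, 2 of the 19, 6 of the 15, 2 of the 9 and 1 of the 5. These class sizes include the 13 members whose nearest named gene was not tested, so the classes are not compared in this. The median GFP-GR100 mean was 0.628 CPM outside named genes, 0.329 CPM in introns, 1.01 CPM opposite exons and 1.74 CPM in same-strand exons. Members in introns of named genes were thus the scarcest of these classes.

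Many neighbours were flat. For 36 members the log2 fold change of the nearest named gene lay within 0.25 of 0. The lincRNA Gm26797, whose promoter with the response element core is printed above, measured 0.546, 0.424, 0.236 and 0.409 CPM in GFP 1 to 4 and 1.21, 2.32, 2.17 and 1.64 CPM in GFP-GR100 1 to 4. Its neighbour Ano10, 11756 bases away, stood at 21 and 21.6 CPM (log2 fold change -0.03, edgeR adjusted p = 0.892). 5430427O19Rik, on chromosome X, measured 0.273, 0.185, 0.516 and 0.384 CPM in GFP 1 to 4 and 0.812, 0.914, 0.892 and 1.22 CPM in GFP-GR100 1 to 4, while Gyk, the glycerol kinase gene 93535 bases away, stood at 22.7 and 22.5 CPM. Gm28720, with a ratio of 6.54, measured 0.0304, 0.0662, 0.0112 and 0.0371 CPM in GFP 1 to 4 and 0.0789, 0.172, 0.310 and 0.387 CPM in GFP-GR100 1 to 4, and its neighbour Pcbp1, an RNA-binding protein gene 26688 bases away, was not called. Gm26740 and C920009B18Rik, 2 members in the cluster of NKG2D ligand genes, averaged 0.313 and 0.261 CPM in GFP-GR100, and H60b, which overlaps the first, was not flat: it stood lower in GFP-GR100, at 0.535 and 0.309 CPM with groups that did not overlap, and was not called (log2 fold change -0.85, edgeR adjusted p = 0.219). The farthest neighbour was that of 2610042L04Rik, 3463269 bases away.

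Neat1 is the long noncoding RNA around which nuclear paraspeckles form. The 3 members Gm27533, Gm27505 and Gm28006 are short RNA models on chr19 between 5844286 and 5845037 that lie wholly inside its exon on the same strand. Gm27533 measured 3.48, 4.81, 3.53 and 3.13 CPM in GFP 1 to 4 and 6.02, 7.16, 6.75 and 13.7 CPM in GFP-GR100 1 to 4. Gm27505 measured 3.87, 3.95, 3.12 and 3.03 CPM in GFP 1 to 4 and 5.32, 6.05, 5.52 and 11.7 CPM in GFP-GR100 1 to 4. In both, GFP-GR100 4 stood far above the other libraries. Neat1 itself measured 49.1, 60.5, 53.6 and 40.9 CPM in GFP 1 to 4 and 77.3, 89.4, 89.99 and 194 CPM in GFP-GR100 1 to 4, and was not called (log2 fold change 1.03, edgeR adjusted p = 0.231). The count of Gm27533 was 0.0660 to 0.0795 of that of Neat1 in GFP libraries and 0.0702 to 0.0801 in GFP-GR100 libraries. The 3 models lie in 1 transcript and are not independent of it or of each other.

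The lead of GFP-GR100 4 extended beyond Neat1. It was the highest GFP-GR100 library for 48 of the 91 (52.7%), against 37.6% of the 3907 other predicted rows at 0.2 CPM. GFP-GR100 1 was the lowest of its group for 49 of the 91 (53.8%), against 29.2% of the others. GFP 4 was the lowest of its group for 42 (46.2%), against 18.3% of the others. The selection used these same values and favours rows with low GFP libraries, so the shares are a description. The most uneven members were Gm19667, Gm18301 and Gm10538, whose highest and lowest GFP-GR100 libraries differed 8.41-fold, 7.92-fold and 7.92-fold. Gm19667, antisense within introns of Atp2c1, measured 0.0902, 0.106, 0.362 and 0.759 CPM in GFP-GR100 1 to 4, and Gm10538, antisense within introns of Nfasc, 0.124, 0.146, 0.336 and 0.982 CPM. In both genes, males were above females in this group. The most even after Gm11626 were Gm12532, at 0.406, 0.424, 0.388 and 0.357 CPM in GFP-GR100 1 to 4, and Gm4070, which both differed 1.19-fold.

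In a division made after the values were seen, 34 members had a GFP-GR100 4 level of at least 1.5 times the mean of the other 3 libraries, and 57 did not. Of the 34, the nearest named gene rose in 3 of 31 tested, and 13 lay in introns only. Of the 57, the nearest named gene rose in 17 of 47 tested, and 6 lay in introns only. Gm27533, Gm27505 and Gm28006, which share the neighbour Neat1, are all among the 34. A neighbour that is uneven between libraries is also less readily called, so these counts are a description. Among members whose neighbour rose, the median log2 ratio of GFP-GR100 4 to the group mean was 0.13, and among the others it was 0.31. Without GFP-GR100 4, the selection kept 75 rows, 67 of them among the 91. Without both this library and GFP 3, it kept 93 rows, 67 of them among the 91.

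**Figure D4:**
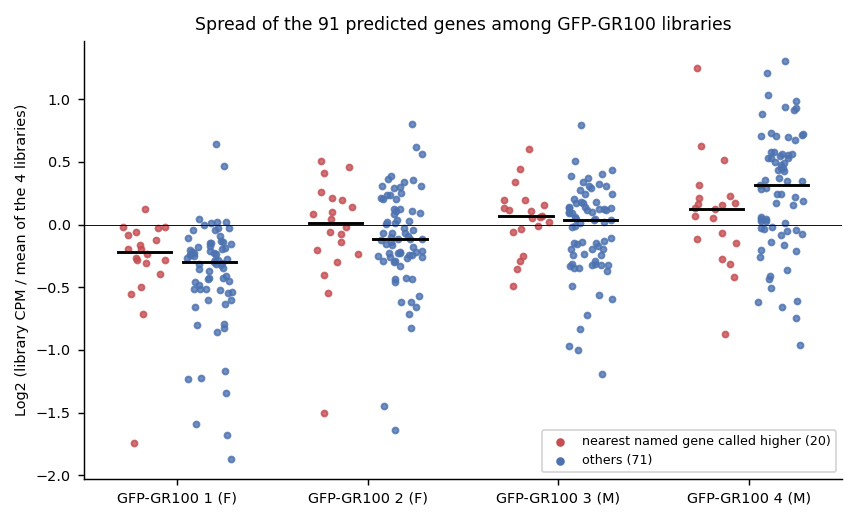
Log2 ratio of each GFP-GR100 library to the mean of the 4 (y axis) for the 91 genes by library (x axis), split by whether the nearest named gene was called higher (red, 20) or not (blue, 71), with black lines at the medians. The blue median is highest in GFP-GR100 4, at 0.31, and lowest in GFP-GR100 1, at -0.29.

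Sex is balanced over the groups and its label was not used in the selection. The selection did use the same CPM values, and full separation of the groups leaves out genes whose sexes differ widely within a group, so the counts below describe the members and are not compared with those of all genes. In the fit across all genes, 4.18% of genes were called between males and females by edgeR. Of the 84 members tested, 0 were called, and 2 had an unadjusted p under 0.05. The smallest adjusted p was that of Gm15135 (log2 fold change of males over females 0.65, SE 0.25, edgeR adjusted p = 0.134), followed by Gm13372 (-0.61, SE 0.28, adjusted p = 0.195), 5430427O19Rik (0.57, adjusted p = 0.211) and C130050O18Rik (0.54, adjusted p = 0.302). DESeq2 and limma-voom also called 0 members, and without a filter on low counts edgeR called 2. The sex calls over all genes rested on single libraries: 877 were called with all 8, 14 without GFP-GR100 2 and 1892 without GFP-GR100 4.

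A difference of the group effect between the sexes was also tested. Over all genes, 0.0524% were called by edgeR. Of the 84 members, 0 were called and 13 (15.5%) had an unadjusted p under 0.05, a share that was 16.4% over all genes. DESeq2 called 2 members, among 567 calls over all genes. Without GFP-GR100 3, edgeR called 6 members among 828 genes, and without GFP 4 it called 3 among 439. The group differences that the interaction sets against each other are those the selection used, so these counts too are a description. The member with the smallest p was 4932418E24Rik (Ccdc187), at 2.67, 2.90, 0.943 and 0.929 CPM in GFP 1 to 4 and 3.33, 4.0, 3.35 and 6.34 CPM in GFP-GR100 1 to 4. GFP females were above GFP males, and the groups differed more in males (log2 interaction 2.09, SE 0.38, edgeR adjusted p = 0.0769). C030048H21Rik, 14092 bases from it, had the same order, at 1.02, 1.23, 0.359 and 0.557 CPM in GFP 1 to 4 and 1.48, 1.59, 1.50 and 2.32 CPM in GFP-GR100 1 to 4 (log2 interaction 1.73, SE 0.44, edgeR adjusted p = 0.115).

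The share of counts at loci carrying ribosomal RNA sequence (Yam1, AY036118 and Lars2) moved with this interaction. It was 11.4% and 6.74% in GFP females, 3.80% and 3.54% in GFP males, 3.20% and 2.76% in GFP-GR100 females and 8.77% and 9.83% in GFP-GR100 males. With this share as a covariate, added after the data were seen, 5 of the 84 members had an unadjusted p under 0.05, and 0 genes were called. The members' median log2 interaction was then 0.43, with 53 above 0, against 0.63 and 63 without the covariate. Over all genes the median was -0.02 with the covariate and 0.04 without it, where 53.5% of genes lay above 0. The selection used the same group differences, so the members' values are a description. The ribosomal RNA share follows nearly the same pattern over the libraries as sex by group. The fit with the covariate therefore cannot separate this share from the interaction. In the fit without the covariate, the 3 other members with the smallest p, Gm26514, 4931413K12Rik and Gm5970, had edgeR adjusted p of 0.109, 0.137 and 0.145. Each of these had GFP females above GFP males.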

How the data were processed

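RNA-seq of cortex and hippocampus was analysed in 8 libraries (4 GFP, 4 GFP-GR100), grouped by their labels. The members and gene lists used here were chosen with earlier results of these data known. The authors deposited raw counts per gene and RPKM (reads scaled to listed gene length and library size). Per the submitters' processing notes, CASAVA, TopHat2 2.1.0, mm10, DESeq2 and R 3.4.1 were used. How genes were counted, on which annotation release and with or without strand is not given in the sources used here. CPM were computed from the deposited counts over each library's total, and RPKM served to compare levels between genes.

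Counts were fitted with edgeR 4.0.16 in R 4.3.3 (filterByExpr at 10 counts and a total of at least 15, TMM, robust quasi-likelihood test, sex and group as terms, and a second fit with their interaction). The p-values were adjusted by Benjamini-Hochberg over 20987 genes at a threshold of 0.05. DESeq2 1.42.0 and limma 3.58.1 (voom, and trend on log2(RPKM + 0.1)) were alternatives. Scripts were tested on simulated data. The labels do not say how the animals relate, so p-values measure the spread between these libraries. The closest pair of libraries differed by a chi-square of 15.6 per degree of freedom, above sampling noise. Intervals of 3 counts for a count of 0 cover counting error only.

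Named neighbours were the overlapping or nearest gene with another kind of symbol in the deposited coordinates. Classes, strands and exons came from GENCODE M21, and promoters from RefSeq (GRCm38.p6). Named in the text, apart from 1 member not reported here with its named neighbour, are the 12 members with the highest GFP-GR100 mean, the 10 with the largest ratio, members of fixed families, members at the thresholds, those with the smallest p for sex and interaction, the 3 most and 3 least even, up to 10 that overlap a named gene, and up to 4 genes per list. Other members named, and Ddx60, Nlrc5, Uba7, Eif2ak2 and Trem2, were chosen after their values were seen.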

Additional observations from a re-analysis of the deposited data

Results flagged for a closer look

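In 8 of 119 groups of 4 libraries examined, 1 library lay farther from the other 3 than Dixon's 95% critical value allows. Chance gives about 1 in 20 among values that were not selected. The selection used these same values and tends to leave out rows with a low GFP-GR100 or a high GFP library. All 8 flagged values lay in the direction it lets pass, so that rate does not apply here and the flags are a description. In GFP-GR100 4, Gm27533 measured 13.7 CPM (other libraries 6.02 to 7.16), Gm27505 measured 11.7 CPM (5.32 to 6.05), F830016B08Rik measured 5.59 CPM (3.55 to 3.84) and C030048H21Rik measured 2.32 CPM (1.48 to 1.59). Gm27533 and Gm27505 are pieces of Neat1 and are not independent. In GFP 4, Gm12743 measured 0.384 CPM (0.530 to 0.550), Gm27995 measured 0.0619 CPM (0.199 to 0.224) and Gm13389 measured 0 CPM (0.0759 to 0.0898). In GFP 1, 2010002M12Rik measured 0.713 CPM (0.909 to 0.927).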

How the results depend on the processing

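No paired analysis was possible because the replicate numbers follow accession order and pair no animals. The selection kept 91 rows, 145 at a minimum of 0.1 CPM, 47 at 0.5 CPM, 164 at a ratio of 1.5, 41 at a ratio of 3, 72 with TMM-scaled library sums, and 75 (without GFP-GR100 4) to 163 (without GFP-GR100 1) with 1 library left out; the reverse pattern went from 6 rows to between 6 and 19. Over all genes, 460 called higher became 1168 with no filter on low counts, 724 with DESeq2 and 304 (without GFP-GR100 2) to 514 with 1 library left out. The 68 called lower became 361 with no filter, 36 at a mean of at least 1 CPM, 200 with DESeq2, 32 with limma-trend, 35 with no sex covariate, 115 without GFP 3 and GFP-GR100 4, 226 with the rRNA share as covariate and 19 to 77 with 1 library left out (19 without GFP-GR100 2 or 3, 37 without GFP 4). Of the members, 31 called higher became 65 with no filter, 13 at 1 CPM, and 15 to 32 with 1 library left out (15 without GFP-GR100 3, 16 without GFP-GR100 2, 20 without GFP 4); 14 were called in all 8 such fits. Neighbours called higher were 19, 9 among those that do not overlap, and 17 to 20 with 1 library left out; 1 was called lower with the rRNA covariate.

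Calls between the sexes (877) became 2730 with no filter, 2641 with DESeq2, 394 without GFP 3 and GFP-GR100 4, 3021 with the rRNA covariate and 14 (without GFP-GR100 2) to 1892 (without GFP-GR100 4) with 1 library left out. Members called between the sexes (0) became 2 with no filter, 1 with the rRNA covariate and 0 to 1 with 1 library left out. Interaction calls (11) became 1353 with no filter, 567 with DESeq2, 7 with limma-voom, 162 without GFP 3 and GFP-GR100 4, 0 with the rRNA covariate and 1 (without GFP-GR100 1) to 828 (without GFP-GR100 3) with 1 library left out. Members among them (0) became 11, with DESeq2 2, without GFP 3 and GFP-GR100 4 2, and 0 to 6 with 1 library left out (6 without GFP-GR100 3). The cause was not tested.

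Of the neighbours' log2 fold changes, 29 values of 7 genes near 0 changed sign. At a mean of at least 1 CPM, Ano10 (-0.03) was 0.0126 and Slc35b3 (-0.0020) was 0.0373. With limma-trend, Ano10 was 0.0399, Qsox2 (-0.05) 0.0159, Slc35b3 0.0635 and Mrpl17 (-0.05) 0.0250. Without both GFP 3 and GFP-GR100 4 these 4 were 0.0296, 0.00263, 0.0755 and 0.0929. Slc35b3 was also 0.00655 with median-of-ratios size factors, 0.0122 with no filter and 0.00633 with DESeq2. With 1 library left out, Ano10 ran from -0.0565 to 0.0137, Qsox2 from -0.0749 to 0.0246, Slc35b3 from -0.0244 to 0.0544, Bloc1s4 from -0.0591 to 0.177, Mrpl17 from -0.0842 to 0.0610, Foxq1 from -0.0109 to 0.324 and Celf2 from -0.0457 to 0.109. None of these 7 genes was called with all libraries. The rRNA covariate and the fits without both libraries were chosen after seeing the data.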
